A study of Mus musculus with 6 samples.

Results

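The astrocyte marker genes are 10 genes that are commonly used to recognise astrocytes in brain RNA: Gfap, Vim, Glul, S100b, Slc1a2, Slc1a3, Slc4a4, Aldoc, Gja1 and Aqp4. Every probe set whose platform annotation names exactly 1 gene symbol from this list was taken. This gave 13 of the 12422 probe sets on the array and 9 of the 10 genes: Gfap, Glul, Gja1 and Aqp4 had a pair of probe sets each and the other 5 genes 1 each. Slc1a3 had no such probe set and was not measured here. The samples were striata of 6 female C57BL/6 mice aged 12 months, 1 Affymetrix array per mouse. Replicates 4, 5 and 6 were wild-type littermates, and replicates 7, 8 and 9 were Hdh4/Q80 mice, a Huntington's disease model that carries an expanded CAG repeat in its own huntingtin gene and that the labels call transgenic. The sources used here do not say whether the mutants carried 1 or both mutant alleles. Values are log2 expression on the array scale, on which 1 unit is a 2-fold change.

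Astrocytes take up glutamate from synapses, buffer potassium and water, share ions and metabolites through gap junctions and line the vessels with their end feet. After injury or in neurodegeneration they can become reactive, a state in which the intermediate filament proteins GFAP and vimentin typically increase; reactive astrocytes and lower glutamate transporter levels are well known from the striatum in Huntington's disease. Several of the markers are not exclusive to astrocytes: vimentin is also made by vessel cells, and oligodendrocytes can express S100b and Glul. In RNA of whole striatum, fewer astrocytes and less RNA per astrocyte cannot be told apart.

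The regulatory sequence of Gfap, the marker on which gliosis is usually read, and of S100b, the marker with the smallest p-value here, are shown for reference. They are RefSeq promoters (assembly GRCm38, 250 bases before to 50 after the annotated start), at chr11:102897151-102897450 on the minus strand for Gfap and chr10:76253586-76253885 on the plus strand for S100b, written 5′ to 3′ with motif matches in capitals.
Gfap: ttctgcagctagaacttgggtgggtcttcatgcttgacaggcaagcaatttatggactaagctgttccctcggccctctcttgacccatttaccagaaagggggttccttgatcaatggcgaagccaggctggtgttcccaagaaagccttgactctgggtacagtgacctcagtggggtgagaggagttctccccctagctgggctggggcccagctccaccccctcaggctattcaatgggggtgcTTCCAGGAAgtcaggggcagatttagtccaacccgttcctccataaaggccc
S100b: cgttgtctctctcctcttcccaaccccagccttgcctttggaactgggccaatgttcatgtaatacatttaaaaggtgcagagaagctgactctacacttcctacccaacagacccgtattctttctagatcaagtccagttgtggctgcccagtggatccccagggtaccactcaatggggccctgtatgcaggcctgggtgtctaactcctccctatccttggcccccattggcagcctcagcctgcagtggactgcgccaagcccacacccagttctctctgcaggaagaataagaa
Both strands were searched for TTCNNNGAA (the palindrome bound by STAT factors, which act in reactive astrocytes), TATAAA, known as the TATA box, for AACAAT, the core bound by SOX factors, and for the palindrome of NFI factors. The search of the markers covered 11 promoters, which belong to 9 of the 10 genes. Aqp4 was not searched, so the counts below leave it out. In Gfap a STAT-type palindrome ran from base -2 to base 7 relative to the start; in S100b none of the 4 motifs matched. The STAT-type palindrome was in 3 of the 11 promoters (Gfap, Slc1a3 and 1 of the pair of Aldoc promoters). It was in 8.3% of all 32851 RefSeq promoters. The letters TATAAA were in 2 (Vim and Slc1a3) against 13.6%. In Vim they ran from base -32 to -27. In Slc1a3 they lay on the other strand, from base -161 to -156, and are a match of letters only. The SOX core was in 0 of the 11 (10.7% of all) and the NFI palindrome in 0 (0.0365% of all). These matches describe letters in a window and say nothing of binding in these mice.

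None of the measured astrocyte markers differed between the groups past the threshold. Of the 13 probe sets 10 had a lower mean in the mutants and 3 a higher one, with a median difference of -0.14 (log2, mutant minus wild type), while 51.1% of all probe sets were below 0 with a median of -0.0027. By limma's test 0 of 13 had an adjusted p under 0.05, as had 0% of all 12422 probe sets. At an unadjusted p under 0.05 there were 3 of 13 (2 lower, 1 higher), where 5.1% of all probe sets lay (2.21% lower, 2.9% higher). The 3 mutants all lay below the 3 wild types on 3 probe sets and all above on 1, against 5.05% and 6.67% of all probe sets. The sizes were small, from 1.02-fold to 1.18-fold, and the smallest adjusted p among the members was 0.857. For 12 of the 13 the 95% interval lay within a 1.5-fold change in either direction on the array scale, as for 98.6% of all probe sets. The exception was the dimmer Aqp4 probe set, whose interval reached 0.663 times the wild-type level. Smaller changes than these are not excluded, and the intervals rest in part on variance pooled over all probe sets.

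**Figure D1:**
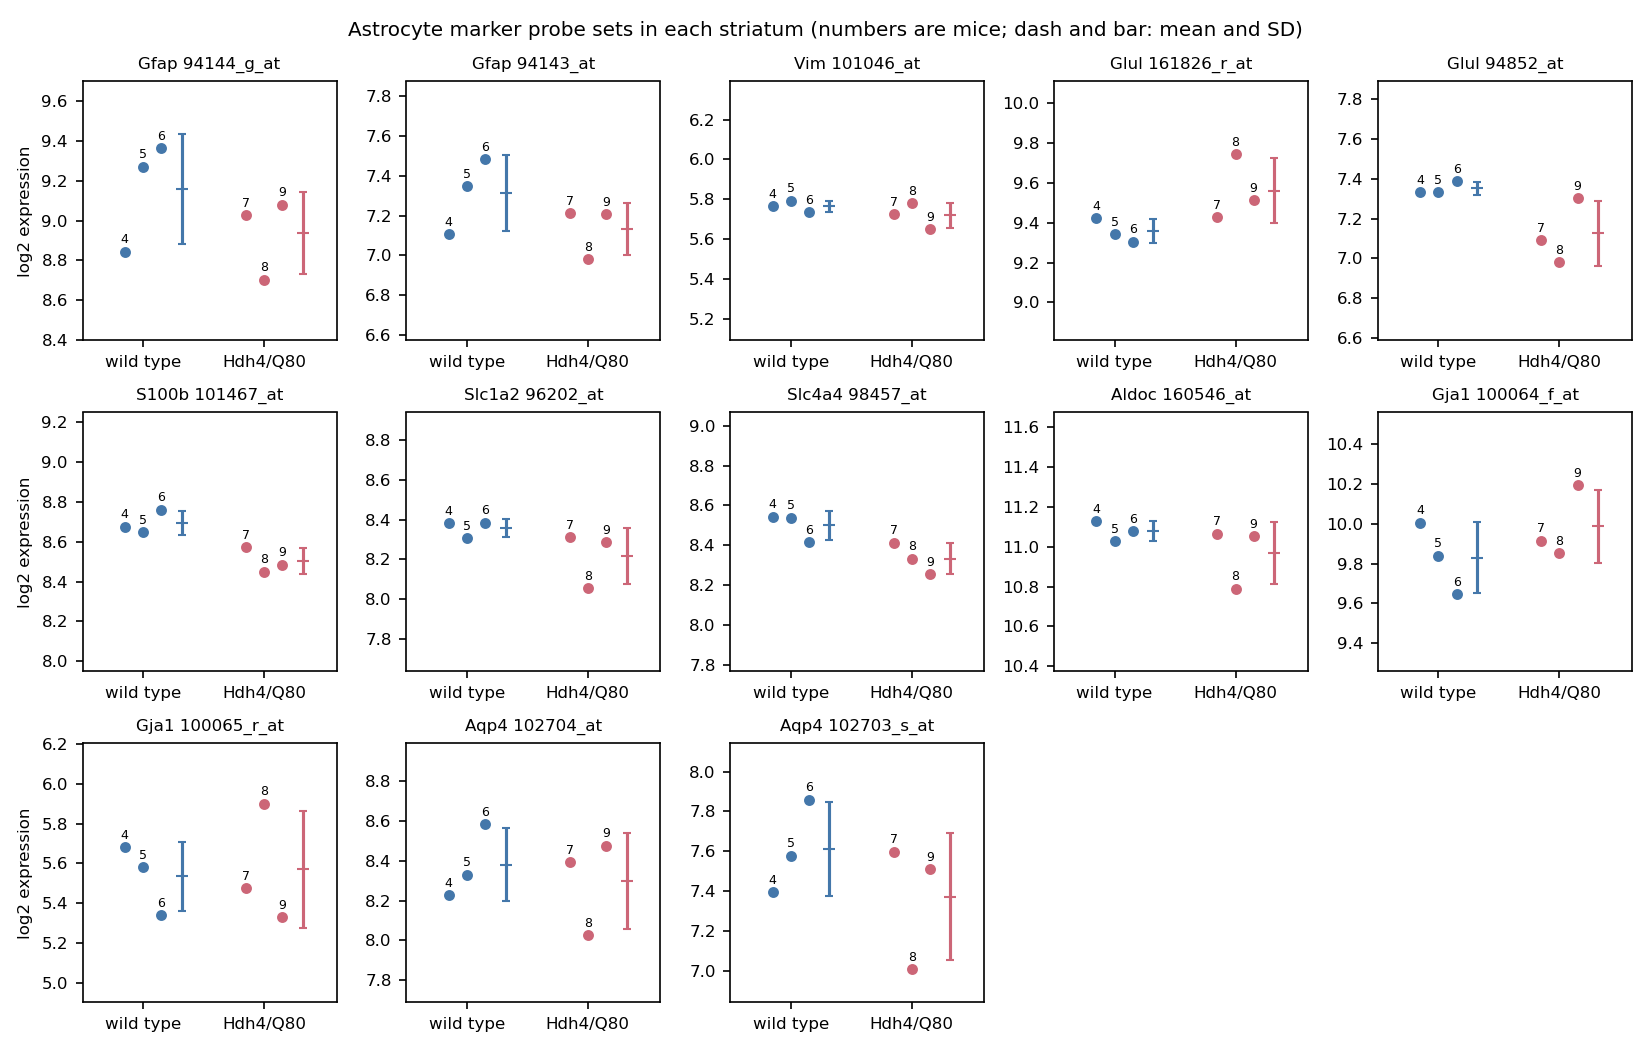
Log2 expression of the 13 astrocyte marker probe sets (vertical axes, all of the same span) in the 3 wild-type (blue) and 3 Hdh4/Q80 (red) striata; each point is 1 mouse with its replicate number, and the dash with its bar is the group mean and SD. The groups are apart for S100b, Slc4a4 and both Glul probe sets, which point in opposite directions, and overlap for the other 9 probe sets.

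Both intermediate filament genes had slightly lower means in the mutants, and their groups overlapped. Gfap encodes the main filament protein of astrocytes. Its brighter probe set (94144_g_at) read 8.84, 9.27 and 9.36 in wild-type replicates 4, 5 and 6 and 9.03, 8.70 and 9.08 in Hdh4/Q80 replicates 7, 8 and 9. The groups overlapped: the lowest wild type, replicate 4, lay below mutants 7 and 9. The difference was -0.22 ± 0.142 (moderated SE, n = 3 mice per group, adjusted p = 0.857 in limma's test). Its 95% interval was -0.54 to 0.09, so that an increase of more than 1.07-fold lay outside it. This limit borrows variance from other probe sets. An interval from the SDs of these mice alone (0.28 in wild type, 0.20 in the mutants) would be wider. The dimmer probe set (94143_at) read 7.11, 7.35 and 7.48 in wild type and 7.21, 6.98 and 7.21 in the mutants. Its difference was -0.18 ± 0.106 with an interval of -0.42 to 0.06. Both Gfap probe sets put the same mice at the ends, wild-type replicate 6 highest and Hdh4/Q80 replicate 8 lowest. Without Hdh4/Q80 replicate 8 the differences became -0.10 and -0.11, without wild-type replicate 4 -0.38 and -0.28, and without wild-type replicate 6 that of the dimmer probe set became -0.096. Vim, which encodes vimentin, was dim, at percentile 23.8 of all probe sets by mean level. It read 5.77, 5.79 and 5.73 in wild type and 5.73, 5.78 and 5.65 in the mutants, which is a difference of -0.04 ± 0.0684 (interval -0.20 to 0.11). It was -0.075 without Hdh4/Q80 replicate 8 and -0.011 without replicate 9. These values had the narrowest spread over the 6 mice among the members, 0.141 from lowest to highest. The array summary method shrinks changes of dim probe sets, so the Vim interval is a weak limit.

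Of the genes that handle glutamate, Slc1a2 was measured once and Glul by a pair of probe sets that disagreed. Slc1a2 encodes GLT-1, the main glutamate transporter of forebrain astrocytes. It read 8.38, 8.31 and 8.38 in wild type and 8.31, 8.05 and 8.29 in the mutants. Only Hdh4/Q80 replicates 8 and 9 lay below all wild types, and replicate 8 was the lowest. The difference of -0.14 ± 0.0834 (SE) had an interval of -0.33 to 0.05 and became -0.060 without replicate 8. Glul encodes glutamine synthetase, which turns the captured glutamate into glutamine. Its brighter probe set (161826_r_at) read 9.42, 9.34 and 9.31 in wild type and 9.43, 9.74 and 9.51 in the mutants. All 3 mutants lay above the wild types, but Hdh4/Q80 replicate 7 and wild-type replicate 4 were nearly level. The difference was 0.20 ± 0.09 with an interval of 0.0027 to 0.40 (unadjusted p = 0.0475, adjusted p = 0.857 in limma's test), and 0.11 without Hdh4/Q80 replicate 8, 0.10 with array weights. The dimmer probe set (94852_at) read 7.33, 7.33 and 7.39 in wild type and 7.09, 6.98 and 7.30 in the mutants. Here all 3 mutants lay below the wild types, with Hdh4/Q80 replicate 8 lowest. The difference was -0.23 ± 0.0882 with an interval of -0.42 to -0.03 (unadjusted p = 0.0285, adjusted p = 0.857 in limma's test). It was -0.15 without replicate 8 and -0.26 with array weights (adjusted p = 0.104 in limma's test). The mean of both probe sets differed by -0.011, so these arrays give no direction for Glul. The brighter probe set carries the suffix _r_at, and how specific it is to Glul was not checked.

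S100b and Slc4a4 were lower in each mutant than in each wild type. S100b encodes a calcium-binding protein of astrocytes and some oligodendrocytes. It read 8.68, 8.65 and 8.76 in wild type and 8.57, 8.45 and 8.48 in the mutants. The difference was -0.19 ± 0.0709 (SE, n = 3 per group), 1.14-fold lower, with an interval of -0.35 to -0.03. It had the smallest unadjusted p of the members (0.0222; adjusted p = 0.857 in limma's test). With 1 mouse left out it ran from -0.23 to -0.16. Slc4a4 encodes the sodium bicarbonate cotransporter by which astrocytes regulate pH. It read 8.54, 8.54 and 8.42 in wild type and 8.41, 8.33 and 8.26 in the mutants. Wild-type replicate 6 and Hdh4/Q80 replicate 7 were almost level, so the groups only just separate. The difference of -0.17 ± 0.0744 had an interval of -0.33 to 1.5e-05 (unadjusted p = 0.050, adjusted p = 0.857 in limma's test). It ran from -0.21 to -0.13 with 1 mouse left out and was -0.080 with array weights. Neither depended on Hdh4/Q80 replicate 8: without it the values were -0.17 for S100b and -0.17 for Slc4a4. Each has a single probe set here, so no second probe set checks them.

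Aldoc, Gja1 and Aqp4 did not separate the groups. Aldoc, the aldolase isoform of astrocytes and a glycolytic enzyme, had the highest percentile by mean level among the members (98.5). It read 11.13, 11.03 and 11.08 in wild type and 11.07, 10.79 and 11.05 in the mutants. Mutants 7 and 9 lay among the wild types and replicate 8 below them. The difference of -0.11 ± 0.0873 (SE) had an interval of -0.31 to 0.08 and became -0.021 without replicate 8 and -0.054 after quantile normalization. Gja1 encodes the main gap junction connexin of astrocytes. Its brighter probe set (100064_f_at) read 10.01, 9.84 and 9.65 in wild type and 9.91, 9.85 and 10.19 in the mutants, which differ by 0.16 ± 0.114 (interval -0.10 to 0.41). Leaving out Hdh4/Q80 replicate 9 gave 0.053, and leaving out wild-type replicate 6 gave 0.064 and replicate 4 gave 0.24. The dimmer one (100065_r_at, percentile 21) read 5.68, 5.58 and 5.34 in wild type and 5.48, 5.90 and 5.33 in the mutants, which differ by 0.04 ± 0.141 (interval -0.28 to 0.35). The highest mutant on the first, replicate 9, was the lowest on the second. Both Gja1 probe sets carry a suffix (_f_at and _r_at), and how specific they are to Gja1 was not checked. Aqp4 encodes the water channel of the astrocyte end feet. Its brighter probe set (102704_at) read 8.23, 8.33 and 8.58 in wild type and 8.39, 8.02 and 8.48 in the mutants, a mean shift of -0.08 ± 0.128 (interval -0.37 to 0.20). The dimmer one (102703_s_at) read 7.39, 7.58 and 7.86 in wild type and 7.60, 7.01 and 7.51 in the mutants, a mean shift of -0.24 ± 0.159 (interval -0.59 to 0.12). Its spread over the 6 mice, 0.853, was the widest of the 13. Without Hdh4/Q80 replicate 8 the 2 Aqp4 differences became 0.054 and -0.056.

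**Figure D2:**
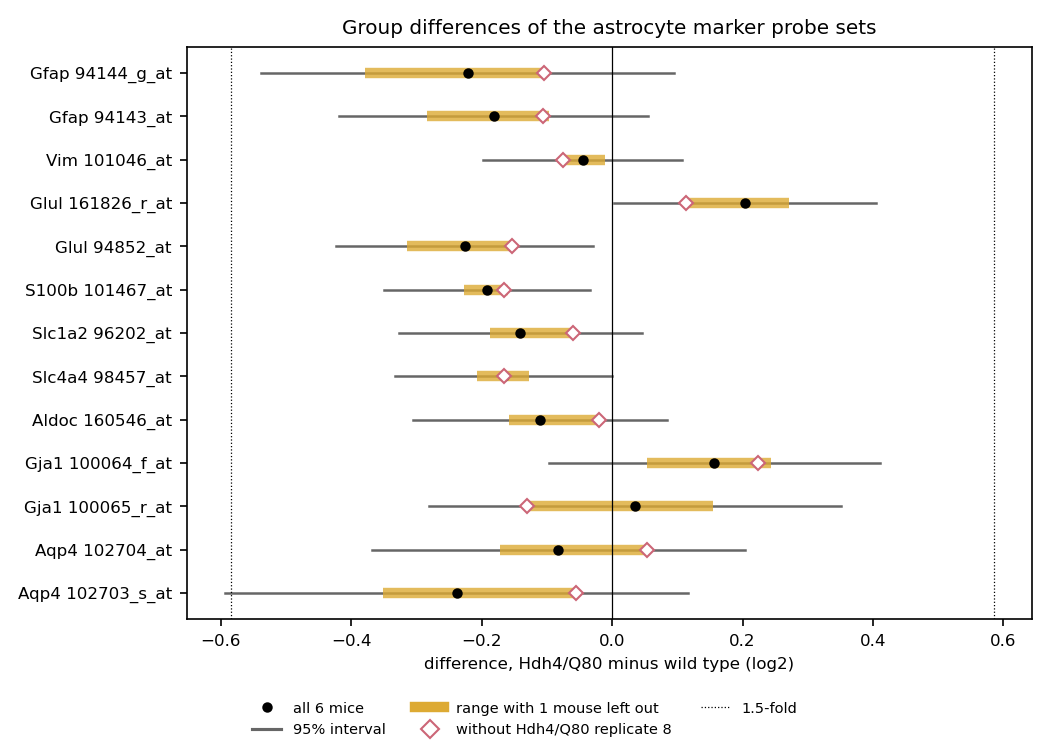
Difference in log2 expression between Hdh4/Q80 and wild type (horizontal axis) for each of the 13 probe sets, with limma's 95% interval (thin line), the range with 1 mouse left out (thick bar), the value without Hdh4/Q80 replicate 8 (diamond) and 1.5-fold limits (dotted). S100b and Slc4a4 hardly move without replicate 8, while Slc1a2 goes from -0.14 to -0.060, Aldoc from -0.11 to -0.021 and the brighter Aqp4 probe set changes sign.

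Agreement between the probe sets of a gene was tested on the within-array difference, brighter minus dimmer, for the 4 genes with a pair. For Gfap this difference was 1.85 ± 0.0971 in wild type and 1.81 ± 0.0767 in the mutants (mean log2 ± SD, n = 3 each). The group differences of its probe sets were thus 0.04 apart (exact two-sided permutation p = 0.5). For Aqp4 it was 0.77 ± 0.0574 and 0.93 ± 0.117 (exact p = 0.2), and for Gja1 4.30 ± 0.0329 and 4.42 ± 0.456 (exact p = 0.7). For Glul it was 2.09, 2.01 and 1.92 in wild type and 2.34, 2.76 and 2.21 in the mutants. All 3 mutants lay above the wild types, by 0.43 on average, with an exact p of 0.1, the smallest that 20 splits of 6 mice allow (adjusted p = 0.4 over the 4 genes). None of the 4 could therefore reach 0.05. The mutant SD of the Gja1 value was far wider than its wild-type SD, because replicates 8 (3.95) and 9 (4.86) lay on either side of the wild types.

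**Figure D3:**
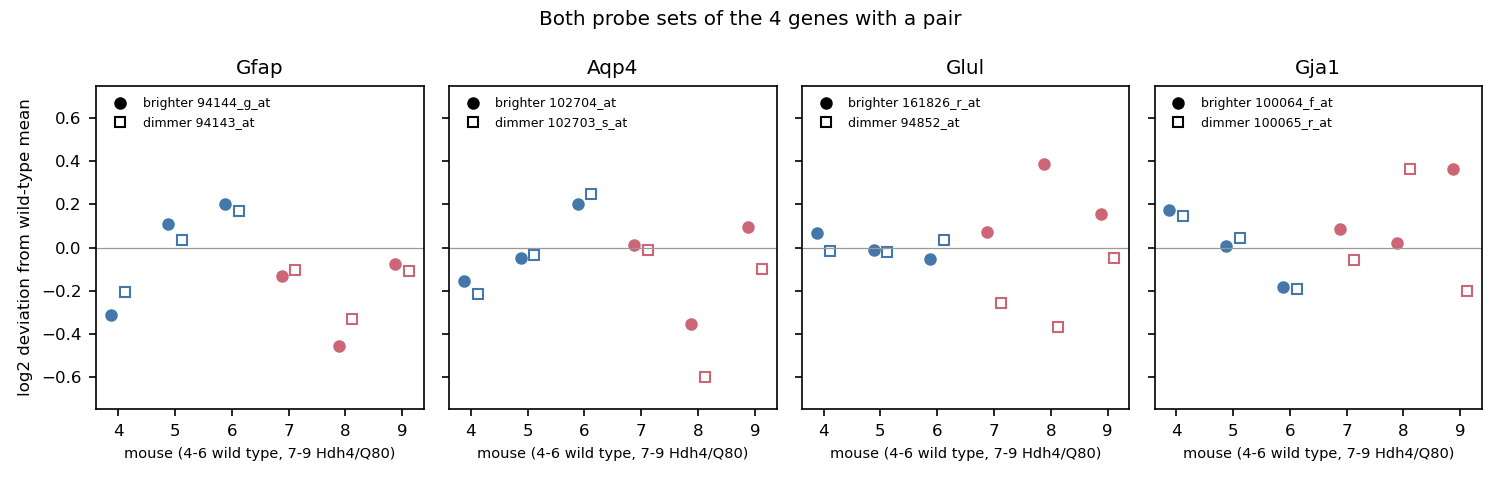
Deviation of each mouse from the wild-type mean (log2, vertical axis) on the brighter (filled circle) and dimmer (open square) probe set of Gfap, Aqp4, Glul and Gja1; blue is wild type, red is Hdh4/Q80. The symbols lie close together in every mouse for Gfap, part in the mutants for Glul, and part in Hdh4/Q80 replicates 8 and 9 for Gja1.

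Differences between mice of 1 group were as large as those between groups for several members. Over the 6 mice 6 of the 13 probe sets spanned more than 0.5 log2 units: both of Gfap, both of Gja1 and both of Aqp4. Wild-type replicate 6 held the highest value on 7 of the 13 probe sets and Hdh4/Q80 replicate 8 the lowest on 8. Over all probe sets replicate 6 was highest on 14.5% and replicate 8 lowest on 33.7%. Among the wild types, replicate 4 was lowest and replicate 6 highest on all 4 Gfap and Aqp4 probe sets, while on both Gja1 probe sets replicate 4 was highest and replicate 6 lowest. The median deviation of the members from the wild-type mean was -0.05 in Hdh4/Q80 replicate 7, -0.29 in replicate 8 and -0.08 in replicate 9. Replicates 7 and 9 were each below that mean on 10 probe sets and replicate 8 on 9.

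The array of Hdh4/Q80 replicate 8 also stood apart over all genes, in a way that depends on brightness. Its mean correlation with the other arrays across probe sets was 0.992, against 0.995 to 0.997 for the other mice, and its values had the smallest SD (1.74 against 1.77 to 1.81). Its median deviation from the wild-type mean was 0.04 in the dimmest 25% of probe sets and -0.12 in the brightest 25%, where the other mutants were at -0.01 and 0.01. Of the 13 members 8 lie in the brightest 25%. There 6 of the 8 were below 0 in the group comparison, as were 65.2% of all probe sets of that class. Renewed quantile normalization and cyclic loess, which make the distributions alike or level such a trend, left 10 of the 13 below 0 in both cases, with medians of -0.12 and -0.12. Without replicate 8 there were also 10 of 13, with a median of -0.07.

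**Figure D4:**
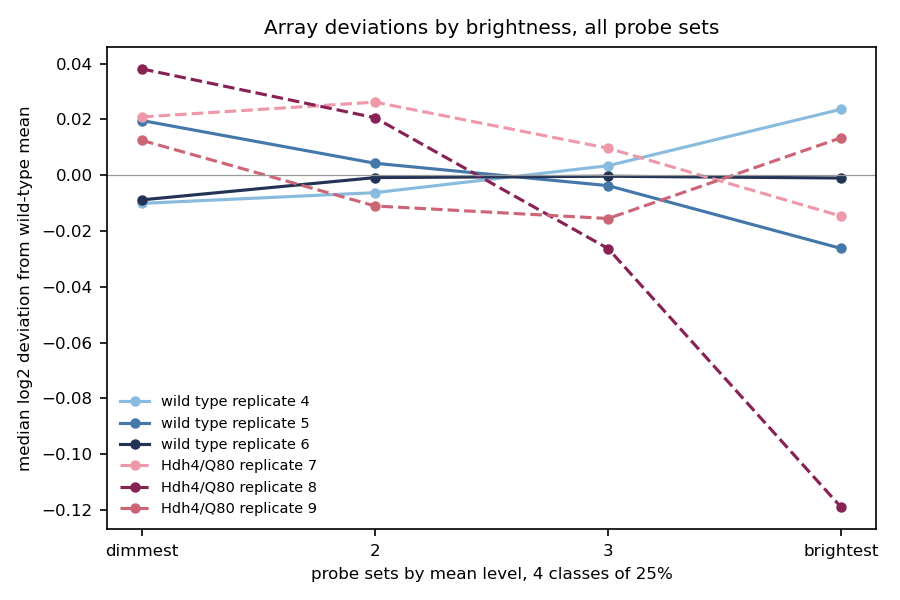
Median log2 deviation from the wild-type mean (vertical axis) of all probe sets in 4 classes of 25% by mean level (horizontal axis), 1 line per mouse; solid lines are wild type and broken lines Hdh4/Q80. Hdh4/Q80 replicate 8 goes from 0.04 in the dimmest to -0.12 in the brightest class, and the other 5 mice stay between -0.03 and 0.03.

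Other genes enriched in astrocytes had the same sign more often than not, and none passed the test. Each gene of a list is given on its brightest probe set, and 53.3% of all 8251 genes were below 0 on theirs. Of 50 further astrocyte genes 33 were measured, with 25 below 0 and a median of -0.08, against -0.0072 over all genes. The list was bright, with a mean log2 level of 9.08 to 9.12 in wild type. Of all probe sets in the brightest 25%, 65.2% were below 0, with a median of -0.04. Of the 33 genes 5 were lower at an unadjusted p under 0.05 and 0 higher (2.13% and 2.17% of all genes), and 0 passed over all probe sets. Ndrg2, an astrocyte-enriched gene of the NDRG family, read 10.53, 10.55 and 10.52 in wild type and 10.35, 10.27 and 10.27 in the mutants. Each mutant lay below each wild type; the difference was -0.23 ± 0.0657 (SE; unadjusted p = 0.0055, adjusted p = 0.857 in limma's test), and -0.14 on its other probe set. Mt1 and Mt2, the metal-binding metallothioneins, read 11.97, 11.72 and 11.88 and 11.74, 11.33 and 11.38 in wild type. In the mutants Mt1 read 11.60, 11.46 and 11.66 and Mt2 11.16, 11.11 and 11.20. All mutants were again below all wild types, with differences of -0.28 ± 0.0871 and -0.33 ± 0.105. Mt3, the brain metallothionein, named here after its values were seen, differed by -0.19 ± 0.0783 with the groups apart. Without Hdh4/Q80 replicate 8 these differences were -0.22 for Ndrg2, -0.23 for Mt1, -0.30 for Mt2 and -0.13 for Mt3, and the list had 22 of 33 below 0 with a median of -0.03. Without wild-type replicate 4 the Mt2 difference was -0.20. Metallothioneins are close copies of each other, and their probe sets may share signal.

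Genes known to increase in reactive astrocytes lay on both sides of 0. Of 45 list entries 31 were measured, Gfap and Vim among them, with 11 below 0, 20 above 0 and a median of 0.02; with array weights 17 were below 0. Without Hdh4/Q80 replicate 9 there were 16 below 0 with a median of -0.0089, and without replicate 8 there were 15 with a median of 0.0065. At an unadjusted p under 0.05 there were 0 in either direction, and 0 passed limma's adjusted test. This list was rather dim, with a mean log2 level of 6.50 to 6.54 in wild type (array medians 7.10 to 7.13). Of all probe sets in the dimmest 25%, 38.8% were below 0, and of those in the next 25%, 45.1%. The array summary method shrinks changes of dim probe sets, so these counts are a weak limit on a reactive change. The smallest p-values belonged to Serping1, the C1 inhibitor (0.16 ± 0.0796, SE), Slc10a6 (0.21 ± 0.111) and Ptx3, a pentraxin (0.14 ± 0.0764). For Slc10a6 all mutants were above the wild types, and wild-type replicate 4 and Hdh4/Q80 replicates 7 and 9 were nearly level. Hdh4/Q80 replicate 8 held the highest value of all 3 genes.

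Lists built around single members gave these counts, again with 0 genes past the adjusted test. Of 12 measured genes of glutamate uptake and the glutamate-glutamine cycle 3 were below 0 (median 0.06). Slc38a2, a glutamine transporter, was at 0.27 ± 0.11 (SE) on its brightest probe set, but at -0.06, 0.01 and 0.02 on the other 3, and Slc1a5, a neutral amino acid transporter, at -0.23 ± 0.0999. Of 22 ion, water and gap junction genes 11 were below 0 (median -0.0031), with Slc4a4 first, then Dag1, the dystroglycan that anchors end foot complexes (-0.16 ± 0.0767), and Dmd, dystrophin (0.13 ± 0.0797, at a dim 3.40 in wild type). Of 11 S100 genes 6 were below 0 (median -0.03). Of these S100a5 was at 0.19 ± 0.0686 and S100a13 at -0.16 ± 0.0759, with its other probe sets at -0.10, -0.20 and -0.06. Of 15 intermediate filament genes 10 were below 0 (median -0.04), led by genes of neurons: Ina, alpha-internexin, at -0.39 ± 0.132, and the neurofilament subunits Nefl at -0.34 ± 0.117 and Nefm at -0.30 ± 0.137.

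Of 21 measured genes of glycolysis and lactate transport, Aldoc among them, all 21 were below 0 on their brightest probe sets, with a median of -0.07. Some were close to 0, such as Hk2 (-0.0065) and Pkm (-0.0082). On their other probe sets Hk2 was at 0.20, Aldoa at 0.13 and Ldhb at 0.05. Those of Slc2a3, Pfkp and Pkm were at -0.18, -0.16 and -0.02. Without Hdh4/Q80 replicate 8 there were 11 of 21 with a median of -0.01, and after quantile normalization or cyclic loess 16. On the brightest probe sets only Slc16a7, a monocarboxylate transporter, had an unadjusted p under 0.05. Its difference was -0.27 ± 0.0709 (SE, unadjusted p = 0.0037, adjusted p = 0.857 in limma's test). It was dim, at 4.91, 4.90 and 4.77 in wild type and 4.61, 4.61 and 4.56 in the mutants. Hk1, a hexokinase, was at -0.11 ± 0.0658 and Ldha, a lactate dehydrogenase subunit, at -0.18 ± 0.109.

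**Figure D5:**
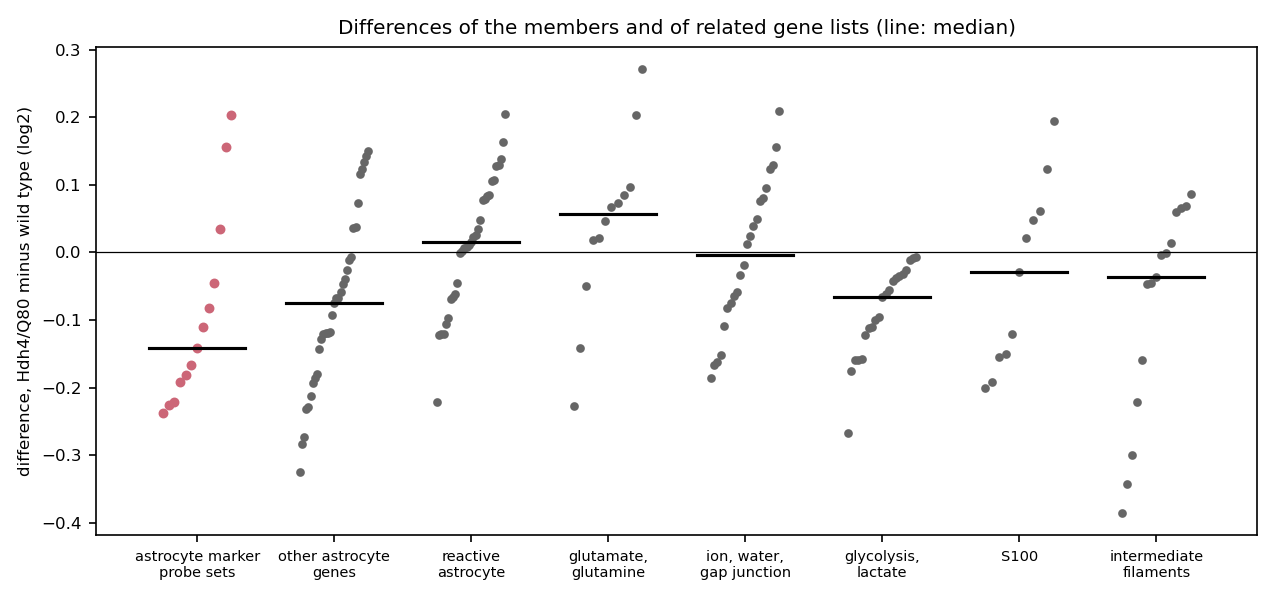
Differences between Hdh4/Q80 and wild type (log2, vertical axis) for the 13 astrocyte marker probe sets (red) and for the genes of 7 related lists on their brightest probe sets (grey), each point 1 probe set and each line a median. The members' median is -0.14, that of other astrocyte genes -0.08 and that of reactive astrocyte genes 0.02.

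Markers of the cells and tissues around astrocytes had the following levels beside these values. The summed linear level of 11 of 12 listed microglia markers was 5042 to 5330 in wild type and 4007 to 4817 in the mutants. Of these 11 markers 10 were below 0, and 9 without Hdh4/Q80 replicate 8. C1qb was at -0.35 on its brightest probe set. On their other probe sets C1qb was at 0.24, Laptm5 at 0.11, Fcer1g at 0.08 and Csf1r at -0.14. For 9 of 11 oligodendrocyte markers, cells that also express S100b, the sums were 13017 to 13779 and 11909 to 12826. Of these 9 markers 7 were below 0, and 8 without Hdh4/Q80 replicate 8. For 12 of 15 vessel markers the sums were 1965 to 2118 and 1915 to 1971, with 8 of 12 below 0 and a median of -0.03. Without Hdh4/Q80 replicate 8 there were 5 of 12 with a median of 0.01. For 12 of 15 neuronal markers the sums were 17532 to 18950 and 17682 to 17943, with 6 of 12 below 0. The sum over 4 of 8 cortical neuron markers was 909 to 1605 in wild type and 825 to 1254 in the mutants. Its mean log2 level was highest in wild-type replicate 6 and lowest in Hdh4/Q80 replicate 8, as were those of the neuronal and microglia markers and of Gfap and Aqp4. For 4 of 10 ependymal and choroid plexus markers the sums were 852 to 1821 and 884 to 3188, highest in Hdh4/Q80 replicate 9, with 0 of 4 below 0. The meningeal (8 of 8), blood (2 of 5) and oligodendrocyte precursor (1 of 6) markers had 3, 2 and 0 below 0. The sums were 5606 to 5774 in wild type and 5435 to 6376 in the mutants for the meningeal list, 3192 to 3764 and 2537 to 2822 for blood, and 270 to 293 and 279 to 302 for the precursor list. The part of these cells and tissues in the astrocyte marker values was not tested. Penk, the enkephalin precursor that marks striatal tissue, read 13.02 in wild type and 13.04 in the mutants on average on its brightest probe set. These values are close to the highest of any probe set (13.42), where changes are shrunk. Its other probe sets differed by -0.19 and -0.12. Among other listed neuronal markers Gad1 differed by 0.26, Rgs9 by 0.11 and Pdyn by 0.08 and -0.07 on its probe sets. Tac1 differed by 0.02 and Gad2 by 0.01. Below 0 on their brightest probe sets were Nefl (-0.34), Nefm (-0.30), Snap25 (-0.22), Stmn2 (-0.15), Syt1 (-0.05) and Eno2 (-0.03). Whether the share of striatal tissue was equal in the groups was not tested.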

How the data were processed

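Total RNA from 6 striata was labelled with biotin and hybridised to Affymetrix arrays, per the labels' protocols. The authors deposited log2 values, 1 per probe set, obtained with RMA (affy package) according to the submitters' processing notes. The sources used here give neither versions nor detection calls. RMA equalises arrays and shrinks changes of dim and nearly saturated probe sets. Sample titles gave groups and replicate numbers. Of 12488 probe sets 66 controls were left out; 10833 of the rest have 1 gene symbol, 396 several and 1193 none. Groups were compared with limma 3.58.1 (R 4.3.3; lmFit, eBayes), adjusting p by Benjamini-Hochberg over 12422 probe sets, with a threshold of 0.05. The fit was tested on simulated data. Array medians lay between 7.10 and 7.13; precision is limited by 3 arrays per group. No label names a batch. The p-values, SEs and intervals rest on the spread between these mice, moderated by limma with variance pooled over all probe sets. The fit had 4 residual and 5.81 prior degrees of freedom.

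The members, gene lists and alternatives were chosen with earlier results of these data known. All members were named, and from each related list the 3 genes of smallest p, since none passed. A listed gene stood on its brightest probe set. Alternatives were a filter on dim probe sets, 3 further normalizations, other variance moderation, array weights, other choices of probe set, and leaving out each mouse; those for related lists were added after seeing the data.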

Additional observations from a re-analysis of the deposited data

How the results depend on the processing

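The count of members past limma's adjusted test was 0 under each alternative run. Of the 13, 10 or 11 had a negative difference; without the dimmest 40% of probe sets it was 9 of the 11 left. With 1 mouse left out, the count at an unadjusted p under 0.05 ran from 1 to 3. It was 1 on leaving out wild-type replicate 5 or 6 or Hdh4/Q80 replicate 8. Without the dimmest 40% of probe sets it was 4, where 338 of all 7454 lay under that p. With array weights it was also 4, where 1812 of all 12422 did. The dimmer Gja1 probe set ran from -0.13 to 0.15 with 1 mouse left out, below 0 on leaving out mouse 6 (-0.061) or mouse 8, and was -0.0037 with array weights. The brighter Aqp4 probe set ran from -0.17 to 0.054, above 0 without the same mice (0.019 and 0.054). The difference between probe sets ran from -0.095 to 0.0011 for Gfap, from -0.10 to 0.35 for Gja1, from 0.27 to 0.54 for Glul and from 0.11 to 0.22 for Aqp4. With array weights, which gave Hdh4/Q80 replicate 7 most weight (6.19, against 0.228 and 0.405 for replicates 8 and 9), 17 reactive astrocyte genes were below 0. The glycolysis count ran from 11 to 21 with 1 mouse left out and was 11 without Hdh4/Q80 replicate 8. The cause of these changes was not tested. Of the 9 genes 7 were below 0 on the brightest probe set, 8 on the average over probe sets and 8 on probe sets without a suffix. Gja1 has no probe set without a suffix and kept its brightest there. No paired analysis was possible because the groups share no replicate number. Detection calls were not used here, so no dim probe set could be called absent.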
